A study of Mus musculus with 173 samples.

Results

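Transcripts ENSMUST00000072818 and ENSMUST00000094710 were 2 of 37264 Ensembl mouse transcripts measured on arrays in the kidneys of 173 male mice. They were selected on the array values of these same animals, for a nearly on-off distribution and for moving together, so their levels and their correlation are given as a description, without a test. The animals were F2 males, bred by intercrossing the offspring of MRL/MpJ dams and SM/J sires, both inbred strains. They were 13 weeks old and formed 1 group with no treatment. Before dissection they spent 3 days in single cages and went 4 hours without food. Each kidney was measured on 1 array. The deposited table names its rows by transcript identifier only, no table used here pairs these identifiers with gene symbols or positions, and no gene name, sequence or kidney marker could therefore be attached to a row.

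In an F2 cross, each animal inherits every autosomal locus as 2 copies of one parental allele, 2 copies of the other, or 1 of each, in the expected ratio 1:2:1. A transcript whose level depends strongly on 1 locus can therefore show discrete levels over the animals. Loci that lie close together on a chromosome are inherited together unless a recombination falls between them. Array values can also differ between strains where a sequence difference lies under a probe. Neither genotypes nor probe sequences entered the analysis, and the classes below are classes of array values (log2 scale), not genotypes.

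ENSMUST00000072818 was either low or high, with nothing in between. Its lowest value was 6.71, its median was 12.35 and its highest value was 13.02 (n = 173). Low values, up to 8.09, were found in 37 animals and high values, from 11.98, in 136, and the interval of 3.89 log2 units between them held no animal. The low animals made up 21.4% of the cohort (exact 95% binomial interval 15.5 to 28.3%). Among all 34406 distinct rows of the table this was the widest interval between neighbouring values.

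The low side was not perfectly uniform. Its median was 7.25 and its SD was 0.25, and all but 2 of its values lay at or under 7.51. The exceptions were mouse 171 at 7.85 and mouse 95 at 8.09, both still far under the lowest high animal. For ENSMUST00000094710 these mice had values of 7.71 and 7.60, which belong to the lowest values of that transcript as well.

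ENSMUST00000094710 moved over a much smaller span, in 3 steps. Its lowest value was 7.51, its median 8.55 and its highest value 9.19 (n = 173). The lowest step held 34 animals (19.7%, exact 95% binomial interval 14.0 to 26.4%), which reached at most 7.93, and the other 139 began at 8.36. The empty interval of 0.43 was the 460th widest of the 34406 distinct rows when any split of the animals was allowed. It was the 30th widest when at least 10 animals had to lie on each side. A second, less empty interval separated the middle from the highest step, as the ordered values show.

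**Figure D1:**
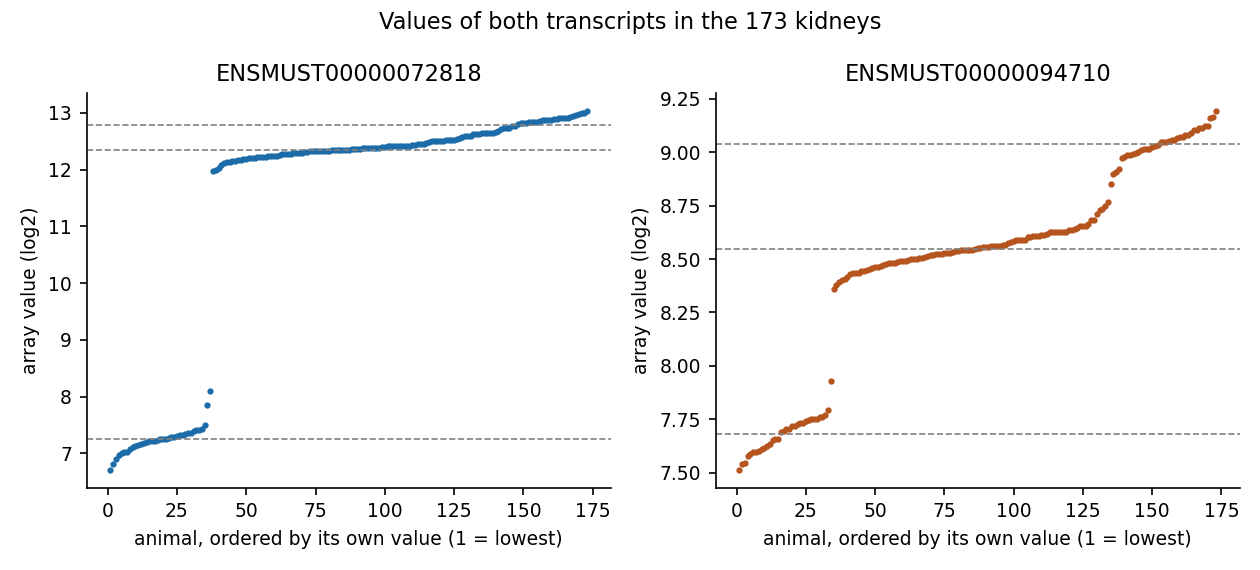
The array values (log2) of ENSMUST00000072818 (left) and ENSMUST00000094710 (right) are plotted for the 173 kidneys, ordered by value within each panel, 1 point per animal, with the fitted class levels as dashed lines. The left panel breaks once, between 8.09 and 11.98, while the right panel shows 3 steps with fitted levels of 7.68, 8.55 and 9.04.

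Class levels were fitted as 3 Gaussian classes with shares of 1:2:1 and a common SD. For ENSMUST00000072818 the levels were 7.25 ± 0.030 (SE, n = 173), 12.35 ± 0.022 and 12.78 ± 0.039, with an SD within classes of 0.18. For ENSMUST00000094710 they were 7.68 ± 0.014, 8.55 ± 0.0083 and 9.04 ± 0.013, with an SD of 0.083. The lowest level of ENSMUST00000072818 stood at the middle of the table, above the means of 49.9% of all rows, and its middle level stood above 99.5% of them. The levels of ENSMUST00000094710 stood above 59.1%, 76.8% and 84.2% of the row means. Values near the median of an RMA table can be mostly background, so a low level there does not show that a transcript is absent.

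The 2 transcripts divided the distance between their outer classes differently. For ENSMUST00000072818 the step from the low to the middle class was 5.11 ± 0.037 log2 units, a 34.5-fold difference in array signal, and the step from the middle to the high class was 0.43 ± 0.043, or 1.35-fold. For ENSMUST00000094710 these steps were 0.87 ± 0.016 and 0.49 ± 0.016, or 1.82-fold and 1.41-fold. The upper steps were thus of similar size on the log2 scale. The low class of ENSMUST00000072818 stood at a level that can be mostly background, so its lower step and fold describe array signal and are no ratio of transcript amounts.

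On the linear scale the middle class of ENSMUST00000094710 lay close to halfway. It had covered 52.7% of the linear distance between the outer classes and stood 0.034 ± 0.013 log2 units above the linear midpoint. For ENSMUST00000072818 the middle class had covered 73.7% of the linear distance and stood 0.54 ± 0.042 above the linear midpoint. These are positions of array values after quantile normalization, not of transcript amounts, and that of ENSMUST00000072818 depends on its low level near background.

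How firmly the upper classes were separated also differed. The middle and high classes of ENSMUST00000072818 lay 2.38 within-class SDs apart, and 33 of the 173 animals could not be placed in any class with a posterior probability of 0.9. Those of ENSMUST00000094710 lay 5.96 SDs apart, and 0 animals were unplaced by that measure. With the class shares left free, 2 and 3 classes described ENSMUST00000072818 about equally well (Bayesian information criterion, BIC, 213.0 and 213.5, where lower is better), whereas for ENSMUST00000094710 the same criterion was 150.3 for 2 classes and -5.87 for 3. With shares fixed at 1:2:1 the criterion for 3 classes of ENSMUST00000072818 was 205.2, and with 1 SD per class it was 196.1. Both were lower than the 213.0 of 2 classes with free shares and a common SD. These fits differ in shares or SDs as well, so that difference does not rank the number of classes alone. With free shares, 3 classes and 2 were about level. With 1 SD per class, its SDs were 0.25, 0.14 and 0.13 from low to high.

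The class models were also compared with Gaussian, skew-normal and Student t distributions, each with a single peak. Of the 17110 distinct rows kept by the filter on row means, 206 were better described by 1:2:1 classes, at a BIC lead above 10. Both transcripts were among these 206. Their leads were 311.4 and 211.9. Both had been selected for a nearly on-off distribution, which a curve with a single peak describes poorly, so these leads are no test. ENSMUST00000072818 ranked 1st of the 206 by separation (30.8 within-class SDs) and by the difference between outer classes (5.53). ENSMUST00000094710 ranked 7th by separation (16.5 SDs) and 50th by difference (1.36). The partner is thus a precise but modest array signal, a 2.56-fold difference between outer classes that is no ratio of transcript amounts.

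The 2 transcripts moved together over the animals. Of the 173 mice, 33 were on the low side of both gaps and 135 on the upper side of both. Over all animals the Spearman correlation was 0.779 and the Pearson correlation 0.861. Without the 2 animals farthest from the median of ENSMUST00000072818 they were 0.772 and 0.853. Both of these animals lie on its low side, so leaving them out keeps most of the low cluster and tells little about its weight. The pooled values mix separate clusters of animals, so the correlation was also taken on each side of the gap of ENSMUST00000072818. Among the 136 animals above it the Spearman correlation was 0.630 (Pearson 0.744), and among the 37 below it 0.128 (Pearson 0.039).

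Apart from 1 animal that was low for ENSMUST00000094710, the animals above the gap comprise the middle and high classes of both transcripts. The correlation of 0.630 therefore includes the step between these classes. A fit with 3 levels for each transcript and 9 free joint shares placed 33.0 animals in both low classes, 93.5 in both middle classes and 37.1 in both high classes, or 94.6% of animals in the same class of both. An expected 9.39 animals (5.43%) fell in different classes. Of these, 5.00 combined a low class with a middle or high class, and 4.39 a middle with a high class. The second number rests on upper classes of ENSMUST00000072818 that overlap. No expected animal (0.00) combined the low class of one with the high class of the other. The correlation of what was left after the class levels of this fit were subtracted was 0.162. In a fit of 3 shared classes with shares of 1:2:1 the correlation within classes was 0.073. That fit has no class for animals that differ between the transcripts. Its SD of ENSMUST00000094710 within classes was 0.169, against 0.083 in the fit with 9 joint shares, which limits what the 0.073 can show.

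In 5 mice the transcripts lay on different sides of their gaps, 2.89% of the animals (exact 95% binomial interval 0.945 to 6.62%). The pair was selected for moving together and the gaps were placed on the same values. The share can therefore be too low, and the interval does not cover that selection. Mice 28, 51, 80 and 124 had low values of ENSMUST00000072818, 7.15, 7.08, 7.25 and 7.51. In the same mice ENSMUST00000094710 stood at 8.57, 8.53, 8.63 and 8.48, in its middle step. Mouse 42 was the reverse case, with ENSMUST00000072818 at 12.34 and ENSMUST00000094710 at 7.93.

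The value of mouse 42 was the highest of the 34 low values of ENSMUST00000094710, and the next one was 7.80. The arrays of these 5 mice correlated with the median array of the series at 0.997 each, which is also the median over all 173 arrays (0.997). Without the 5 mice, the correlation of the 2 transcripts was 0.803 (Spearman) and 0.915 (Pearson). The mice were left out because the transcripts differed in them, so a higher correlation follows from that choice.

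**Figure D2:**
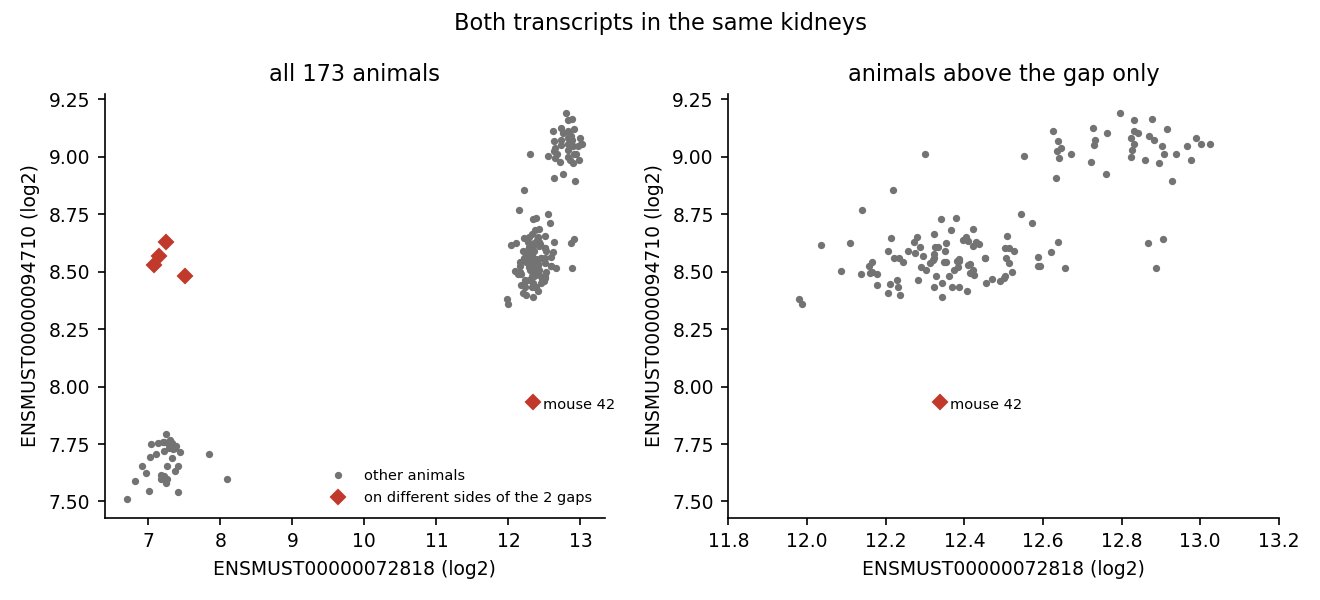
ENSMUST00000094710 (vertical axis, log2) is plotted against ENSMUST00000072818 (horizontal axis, log2) for all 173 kidneys (left) and for the 136 animals above the gap (right), 1 point per animal, with the 5 mice on different sides of the gaps as red diamonds. Of the 5, 4 lie above the lower left cluster, at 8.48 to 8.63 on the vertical axis, and mouse 42 lies alone at 7.93.

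Few other transcripts followed this pattern. Correlations were taken with the 17108 other distinct rows whose mean exceeded the median of all row means. An absolute Spearman correlation above 0.4 with ENSMUST00000072818 was found for 30 of them, 0.175% of those tested, 13 positive (0.076%) and 17 negative (0.0994%). For ENSMUST00000094710 it was also found for 30 (0.175%), 17 positive (0.0994%) and 13 negative (0.076%). The lists shared 25 transcripts (0.146%), which is 83.3% of each, and held 35 between them (0.205%).

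All 35 had the same sign with both members, which are themselves correlated. For comparison, the median absolute Spearman correlation over the tested rows was 0.067 with ENSMUST00000072818 and 0.062 with ENSMUST00000094710. The 99th percentiles were 0.279 and 0.243. Most rows of the table were followed by more rows. With the partner counted, each member was followed by 31 rows, while the median over the 17110 distinct rows was 249 (quartiles 61 and 750). Among the 211 rows with discrete classes the median was 61 (quartiles 38.5 and 96.5), and 16.1% of them had fewer than 31.

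The 35 transcripts were not 35 separate measurements. At a Spearman correlation above 0.9 with one another, 17 of them joined into 8 sets, which left 26 separate sets. Transcripts of 1 gene often share probes on arrays of this kind. A further 6 rows of the table had values identical to a listed transcript and were counted with it.

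**Figure D3:**
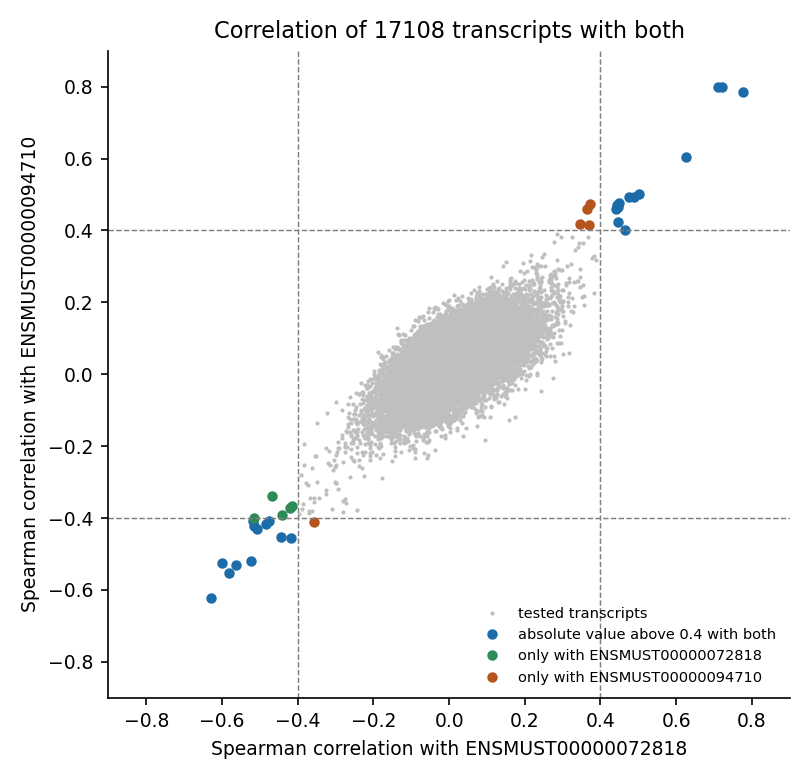
Each point is 1 of the 17108 tested transcripts, with its Spearman correlation over 173 animals with ENSMUST00000072818 on the horizontal and with ENSMUST00000094710 on the vertical axis, and dashed lines at 0.4 and -0.4. The 35 coloured transcripts lie in the upper right and lower left corners, and 3 of them stand apart at the upper right with correlations of 0.711 to 0.800.

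The closest transcripts correlated positively with the members. ENSMUST00000048363 had a lowest value of 8.47, a median of 8.97 and a highest value of 9.41, and correlated at 0.776 with ENSMUST00000072818 and at 0.786 with ENSMUST00000094710. ENSMUST00000068206 ran from 8.25 through a median of 8.76 to 9.32, with correlations of 0.720 and 0.800. ENSMUST00000087256 ran from 8.25 through 8.76 to 9.39, with correlations of 0.711 and 0.798. The last 2 correlated at 0.991 with each other and make up 1 of the 8 sets.

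With ENSMUST00000072818, no tested row correlated more strongly than the partner. With ENSMUST00000094710, by contrast, these 3 transcripts all ranked above ENSMUST00000072818, which came 4th. All 3 had discrete classes of their own. The levels were 8.61, 8.97 and 9.25 for ENSMUST00000048363, and 8.43, 8.76 and 9.01 for ENSMUST00000068206. The difference between outer classes was 1.55-fold and 1.49-fold, with an SD within classes of 0.081 and 0.080.

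ENSMUST00000051757 was the next of the positive transcripts, from 9.74 through a median of 10.14 to 10.49, with correlations of 0.627 and 0.604. It was followed by ENSMUST00000111770 (0.502 and 0.501) and ENSMUST00000031412 (0.489 and 0.494), which correlated at 0.993 with each other, and by ENSMUST00000102578 (0.475 and 0.493). None of these 4 passed the BIC lead of 10 for discrete classes. Of all 35 transcripts 5 did (14.3%), beside 1.22% of the tested rows. The other 2 were ENSMUST00000031367 and ENSMUST00000075376, which correlated at 0.997 with each other. The members were selected for such levels, so rows chosen for following them can share the levels, and the percentages are no test. Members of 1 set also enter the 14.3% more than once.

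The transcripts that correlated negatively with the members were led by ENSMUST00000031195. It ran from 6.30 through a median of 7.31 to 8.28. Its 2.96-fold difference between the 5th and 95th percentiles of animals was the largest of the list. Its correlations were -0.629 and -0.621. ENSMUST00000086519, with a median of 12.03 (range 11.13 to 12.48), correlated at -0.600 and -0.526.

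ENSMUST00000094611 (-0.581 and -0.554), ENSMUST00000051937 (-0.563 and -0.531) and ENSMUST00000064571 (-0.524 and -0.518) came next, with medians of 8.18, 7.43 and 7.57. ENSMUST00000100842, ENSMUST00000112093 and ENSMUST00000040555 form 1 set. They correlated with ENSMUST00000072818 at -0.517, -0.517 and -0.515 and with ENSMUST00000094710 at -0.408, -0.421 and -0.3999, so that the last fell just short of the threshold there.

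The counts of transcripts closer to one or the other member differed between the signs. Of the 18 negative transcripts, 15 correlated more strongly with ENSMUST00000072818 and 3 with ENSMUST00000094710. Of the 17 positive ones, 4 were stronger with ENSMUST00000072818 and 13 with ENSMUST00000094710. Members of 1 set enter these counts more than once, and the differences between the 2 correlations were not tested.

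All of the 35 varied far less than ENSMUST00000072818. The difference between the 5th and 95th percentiles of animals was 1.45-fold in the median and 1.20-fold to 2.96-fold over the list, against 55.1-fold for ENSMUST00000072818 and 2.79-fold for ENSMUST00000094710. The median over all tested rows was 1.27-fold. Their means lay between 7.30 and 12.03.

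The threshold divided a continuous series of values. For ENSMUST00000072818 the last transcripts inside were ENSMUST00000031081 (-0.417) and ENSMUST00000116505 (-0.416), and the first outside were ENSMUST00000087181 (-0.397) and ENSMUST00000094700 (-0.391). For ENSMUST00000094710 the last inside were ENSMUST00000031040 (-0.407) and ENSMUST00000031508 (0.4002), and the first outside were ENSMUST00000040555 (-0.3999) and ENSMUST00000031158 (-0.392).

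The correlations were also taken within each side of the gaps. Within the 136 animals above the gap of ENSMUST00000072818, all 30 transcripts that followed it kept the sign of their correlation with it. Absolute values ran from 0.199 to 0.561 with a median of 0.354, and 8 stayed above 0.4. These animals are most of those on which the 30 were chosen, and they hold both the middle and the high class. The kept sign can therefore follow from the choice. Within the 37 animals below that gap the median absolute correlation was 0.067, the highest was 0.301, and 0 were above 0.4. ENSMUST00000048363 had 0.561 above the gap and -0.035 below it, and ENSMUST00000068206 had 0.529 and 0.069. For ENSMUST00000094710, within the 34 animals below its own gap, the 30 transcripts that followed it had a median absolute correlation of 0.163 with it, and 3 were above 0.4. These were ENSMUST00000075376 (0.466) and ENSMUST00000031367 (0.462), which belong to 1 set, and ENSMUST00000031144 (0.440). ENSMUST00000048363 had 0.367. A smaller number of animals widens the error of such values.

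Above the gap the top 3 transcripts were closer to ENSMUST00000094710 than to ENSMUST00000072818. The correlation with ENSMUST00000094710 in those 136 animals was 0.635 for ENSMUST00000048363, 0.695 for ENSMUST00000068206 and 0.690 for ENSMUST00000087256. Those with ENSMUST00000072818 were 0.561, 0.529 and 0.507. The upper classes of ENSMUST00000072818 overlap more, as given above.

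**Figure D4:**
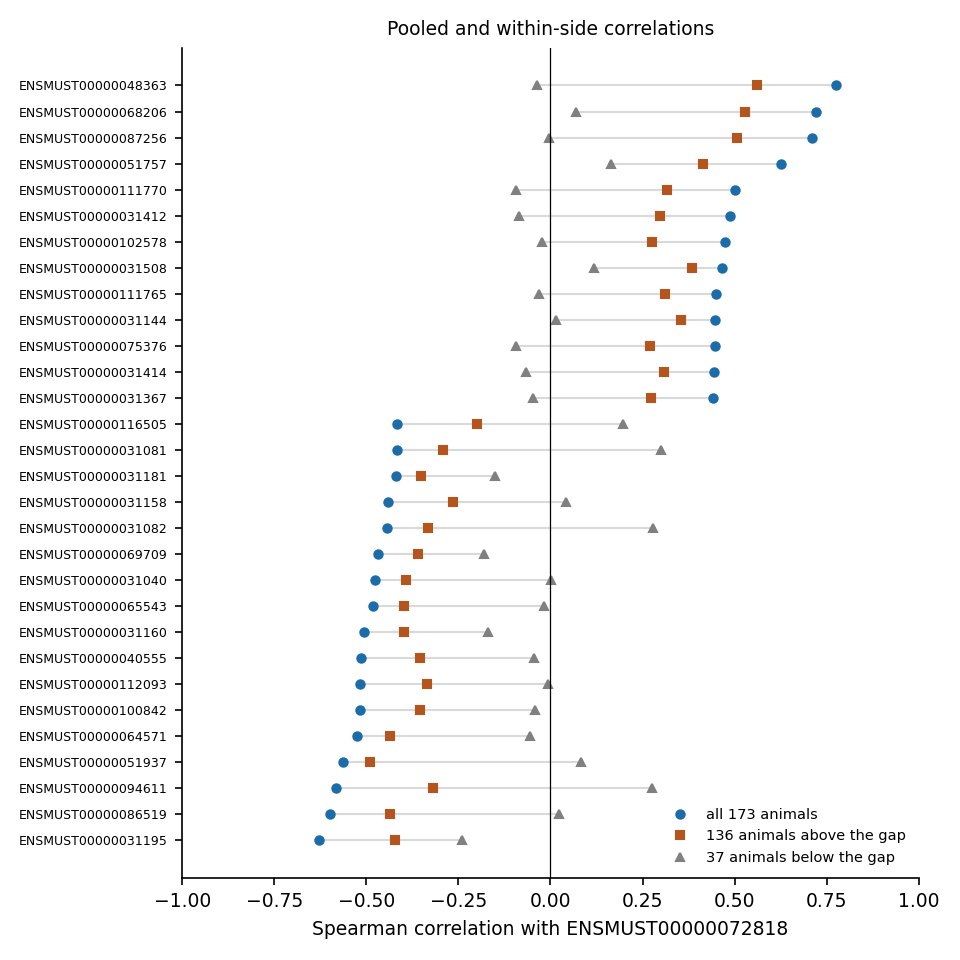
For each of the 30 transcripts that followed ENSMUST00000072818, its Spearman correlation (horizontal axis) with that transcript is plotted over all 173 animals (circles), over the 136 above the gap (squares) and over the 37 below it (triangles). The squares keep the sign of the circles and lie nearer to 0, and the triangles scatter around 0 with absolute values up to 0.301.

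In the 5 mice on different sides of the gaps, the closest transcripts went with different members. In mice 28, 51, 80 and 124 ENSMUST00000048363 stood at 8.64, 8.51, 8.67 and 8.60, around its low class level of 8.61, as ENSMUST00000072818 did. In mouse 42 it stood at 9.12, between its middle and high levels. ENSMUST00000068206 stood at 8.71, 8.71, 8.71 and 8.73 in the same 4 mice, near its middle level of 8.76, as ENSMUST00000094710 did, and at 8.44 in mouse 42, at its low level.

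The same comparison was made for every listed transcript by fitting a straight line on each member over the other 168 animals and counting the mice that lay nearer to the line on ENSMUST00000072818. That count was 5 of 5 for 6 transcripts, 4 for 4, 3 for 15, 2 for 5, 1 for 1 and 0 for 4. The 6 were ENSMUST00000048363, ENSMUST00000031195, ENSMUST00000051757, ENSMUST00000102578, ENSMUST00000113047 and ENSMUST00000074733, and the 4 were ENSMUST00000068206, ENSMUST00000087256, ENSMUST00000064571 and ENSMUST00000069709. The count did not always go with the stronger correlation. ENSMUST00000113047 and ENSMUST00000074733, which form 1 set, passed the threshold of 0.4 with ENSMUST00000094710 alone, and ENSMUST00000069709 passed it with ENSMUST00000072818 alone. ENSMUST00000031195, for example, stood at 7.72, 7.84, 7.97 and 7.83 in mice 28, 51, 80 and 124, near its fitted high level of 7.90, and at 7.17 in mouse 42. ENSMUST00000051757 stood at 9.93, 9.79, 10.03 and 9.79 in these 4 mice and at 10.19 in mouse 42.

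The distance between the lines, set against the scatter around them, differed between transcripts. The median distance in the 5 mice was 4.35 residual SDs for ENSMUST00000048363 (the smaller SD around either line), 2.92 for ENSMUST00000068206 and 2.89 for ENSMUST00000087256. It was 1.92 for ENSMUST00000031195 and 1.67 for ENSMUST00000051757. For the other 30 transcripts it lay between 0.624 and 1.64. This comparison was chosen after the values of the 5 mice had been seen, and 5 animals give no test.

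**Figure D5:**
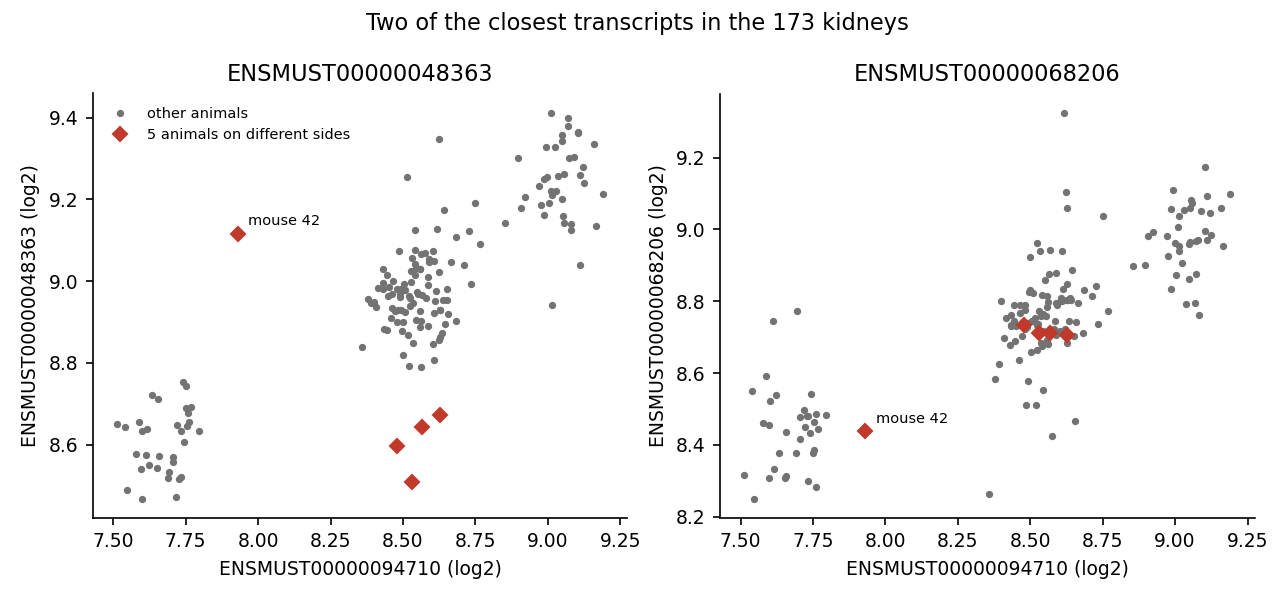
ENSMUST00000048363 (left) and ENSMUST00000068206 (right), on the vertical axes (log2), are plotted against ENSMUST00000094710 (horizontal axes, log2) for the 173 kidneys, with the 5 mice on different sides of the gaps as red diamonds. On the left the diamonds lie off the clusters, at 8.51 to 8.67 for 4 of them and at 9.12 for mouse 42, while on the right they lie within or near the clusters.

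For comparison, 5 rows with wide gaps, and ENSMUST00000087657 as a further row with discrete classes, had absolute correlations of at most 0.134 with the members. ENSMUST00000019068 split the animals into 35 low and 138 high across an interval of 1.86, with correlations of 0.134 and 0.080 with the members. ENSMUST00000087657, with 3 classes at 6.17, 7.95 and 8.66, correlated at -0.020 and 0.018. ENSMUST00000078869 (39 animals below and 134 above an interval of 1.46) correlated at -0.067 and -0.077, and ENSMUST00000030480 (48 and 125 animals, 1.43) at -0.053 and 0.0024. The widest gaps of ENSMUST00000103322 (1.94) and ENSMUST00000029024 (1.52) set apart 1 animal at the top and 8 animals at the bottom, and their correlations with the members lay between 0.049 and 0.124.

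Measures of array quality had absolute Spearman correlations of at most 0.244 with the members. The Spearman correlation of an array's likeness to the median array with ENSMUST00000072818 was 0.244 (Pearson 0.019) and with ENSMUST00000094710 0.160 (Pearson 0.064). With array means it was -0.054 and -0.038. Of the first 5 principal components, the fifth was the closest, with absolute Spearman correlations of 0.224 and 0.208, and it held 3.19% of the variance.

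The lag-1 autocorrelation along mouse number was -0.099 and -0.098. The 5 arrays least like the median array (mice 29, 47, 50, 103 and 123) were all on the upper side of both gaps. Without them the correlation of the members was 0.784, and all 30 transcripts of each list stayed above 0.4. The labels give no array batch, so a batch could not be examined.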

How the data were processed

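Kidney RNA of 173 F2 males was hybridised to Affymetrix arrays, 1 array per animal, per the labels' protocols. The deposited values are on the log2 scale. The authors made them with affy and RMA, per the submitters' processing notes, and RMA corrects background, equalises the quantiles of arrays and summarises probes. The sources used here do not give the affy version, probe sets or genome build. The table had 37264 rows, no missing value (0) and values from 4.65 to 14.08, and array means lay between 7.48 and 7.60. Arrays give no counts, and their number limits the precision.

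Rows identical on every array were kept once (2858 left out). The filter kept the 17110 distinct rows whose mean exceeded the median row mean (7.25). Class models were fitted by maximum likelihood (expectation maximisation, 3 starts) with NumPy 2.4.6 and SciPy 1.17.1 in Python 3.11.15. Their BIC was set against that of Gaussian, skew-normal and Student t distributions. Standard errors came from the observed information. Gaps of the members had at least 10 animals on each side. Animals were not assigned to classes. The methods were tested on simulated data. Transcripts named were the members, the 12 rows most correlated with each, those next to the threshold, and the rows with the widest gaps. Another 8 rows were named once their values were known. The members and lists were chosen with earlier results of these data known, so no p-values are given. Alternatives changed the normalization, arrays, principal components, class shares, SDs, number of classes, filter, threshold and correlation. The fit of joint classes and the results without the 5 mice were chosen after seeing the data.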

Additional observations from a re-analysis of the deposited data

How the results depend on the processing

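Of 74 alternative values, 57 stayed close to the main value (class levels within 1 within-class SD, the correlation within 1 SE, counts within 1.5 times), 17 moved further and 0 changed sign. Levels, differences between ordered classes and counts could not change sign, so the last number informs only on the correlation of the members. With the first 5 principal components removed, the low level of ENSMUST00000072818 was 7.51 and its outer classes were 5.27 apart, those of ENSMUST00000094710 were 1.22 apart, and 52 rows followed ENSMUST00000094710. With only 2 classes, which merges the upper ones, the high level was 12.49 and the difference 5.24 for ENSMUST00000072818, and 8.69 and 1.00 for ENSMUST00000094710. The correlation of the members, 0.779, was 0.861 as Pearson's and 0.630 in the animals above the gap, where 8 rows followed ENSMUST00000072818 and 7 followed ENSMUST00000094710 among fewer animals. The number of rows was 112 and 84 above a correlation of 0.3, and 14 and 10 above 0.5, as a looser or stricter threshold must give. It was 17 for ENSMUST00000072818 with means above the upper quartile, where fewer rows enter. Otherwise the counts of 30, which are 0.175% of the 17108 rows tested in the main setting, lay between 20 and 41. Settings that change the filter or keep identical rows also change the number of rows tested. These counts are therefore not shares of 1 common total. With arrays quantile-normalized again, 40 and 39 rows followed, among them 30 and 27 of the main lists, and without the 5 mice on different sides of the gaps 33 and 32, among them 29 and 30. The cause of the other changes was not tested. Signal near background limits what the low class of ENSMUST00000072818 can show. No paired analysis was possible because the animals form 1 group.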

Other observations

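Rows with mean array values no higher than the median also held transcripts that followed the members. Of 17296 such distinct rows, 7 had an absolute Spearman correlation above 0.4 with ENSMUST00000072818 (0.040%), 2 positive and 5 negative, with a highest absolute value of 0.603. For ENSMUST00000094710 there were 6 (0.035%), 1 positive and 5 negative, with a highest absolute value of 0.507.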
